A study of Ovis aries with 6 samples.

Results

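In the skin of 6 sheep, once the wool keratins and a few other genes were left out, the brightest named probes reported housekeeping and structural genes. They included ribosomal proteins, ferritin, ubiquitin, the dermal proteoglycan decorin and the c subunit of ATP synthase. The 114 probes described here were chosen by their signal. Each carries a sheep RefSeq mRNA accession, and its mean over the 6 arrays of log2 processed signal minus the array's 75th percentile was 2 or more. This value is called the level below, and a difference of 1 in level is a difference of 2-fold in signal. Of 15008 non-control probes on the array, 758 carry such an accession and 124 of these reached the level, of which 10 were left out by the rule as probes of wool keratins, keratin-associated proteins, stratifin or ETS2. The 114 probes stand for 85 of the 489 genes that have such an accession on the array, and 82 of the 85 were matched to a gene symbol of the sheep reference. Over all probes of the array, named or not, 1932 reached the same level. Because the level itself chose the probes, the levels and their order are a description and were not tested.

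The samples were full-thickness skin of the body side from 3 sheep of the Aohan fine wool breed and 3 small tail Han sheep, all aged 12 months, with 1 array per animal. A ram and 2 ewes represented each breed, with no label for the sex of a single animal. The sheep of a breed shared a sire and their arrays also shared a scan session, so breed, sire and session cannot be told apart in any difference given below. The study compared the breeds to find genes that bear on the diameter of the wool fibre. The replicates are separate animals.

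Skin holds an epidermis of keratinocytes, which die to form the cornified layer, a dermis in which fibroblasts lay down collagen and proteoglycans, and wool follicles with their sebaceous glands and small smooth muscles. A transcript can be abundant in such a sample because all cells make it, as with the proteins of the ribosome, or because a common cell type makes much of it, as with decorin in dermal fibroblasts. A probe's signal also depends on its own sequence, so the order given here is an order of probe signals and not of transcript numbers.

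The tissue label was checked against lists of cell type markers, matched only to probes with a sheep RefSeq mRNA accession. The wool follicle list had 7 probes, well above background on every array at levels of 5.99 to 8.17, and 0 of them passed the breed test described below. The dermal fibroblast list had 10 probes with a summed level (log2 of the summed signals) of 8.30 to 8.82 in small tail Han sheep and 8.19 to 8.87 in Aohan sheep. DCN and TIMP1, which are among the 114 probes, carried this sum, while the probes of BGN, TIMP3, SERPINF1 and MMP2 lay between -6.50 and -1.65, and SERPINF1 was higher in Aohan sheep. Skeletal muscle markers (MB and MSTN, 3 probes) lay between -4.30 and -2.74, the blood marker HBB at -1.38, the endothelial list between -7.34 and -2.25 and the melanocyte marker TYR at -2.52 and -5.47. The myosin light chain MYL11, which is not in the skeletal muscle list, stood at 2.89. The adipocyte list had 4 probes, led by PLIN1 at 1.86. The sebaceous list had 5, led by a DGAT1 probe at -0.30, which passed as lower in Aohan sheep (log2 change -0.66). The other DGAT1 probe (-0.59) did not pass. Neither did the ACACA probes, which changed the other way (0.43 and 0.44), and SCD was well above background on 0 arrays. The immune cell list had 11 probes, 5 of them higher in Aohan sheep (CD3E, CD3D and ITGB2), with a summed level of 2.51 to 3.20 in small tail Han and 3.55 to 3.82 in Aohan sheep, while CD4 was well above background on at most 1 array. The epidermal list was represented by LOC443313 alone and the smooth muscle list by CNN1 alone, and both are among the 114 probes. No spot was saturated, and the 75th percentile of the intensity was 1725 to 2281 on the small tail Han and 1096 to 2028 on the Aohan arrays.

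The level of the 114 probes ran from 7.55 down to 2.03, with a median of 4.22, which is a 45.7-fold range of signal. The first of them, RPL10 A_70_P029951, was in place 63 among all 15008 probes, and the last, SLC2A3, in place 1909. Of the 114, 19 had a level of 6 or more, 46 lay between 4 and 6, and 49 between 2 and 4. Nearly all were measured firmly: 113 were well above background on all 6 arrays, and only LOC443442 lacked a value, its spot being marked as an outlier on Aohan replicate 1.

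**Figure D1:**
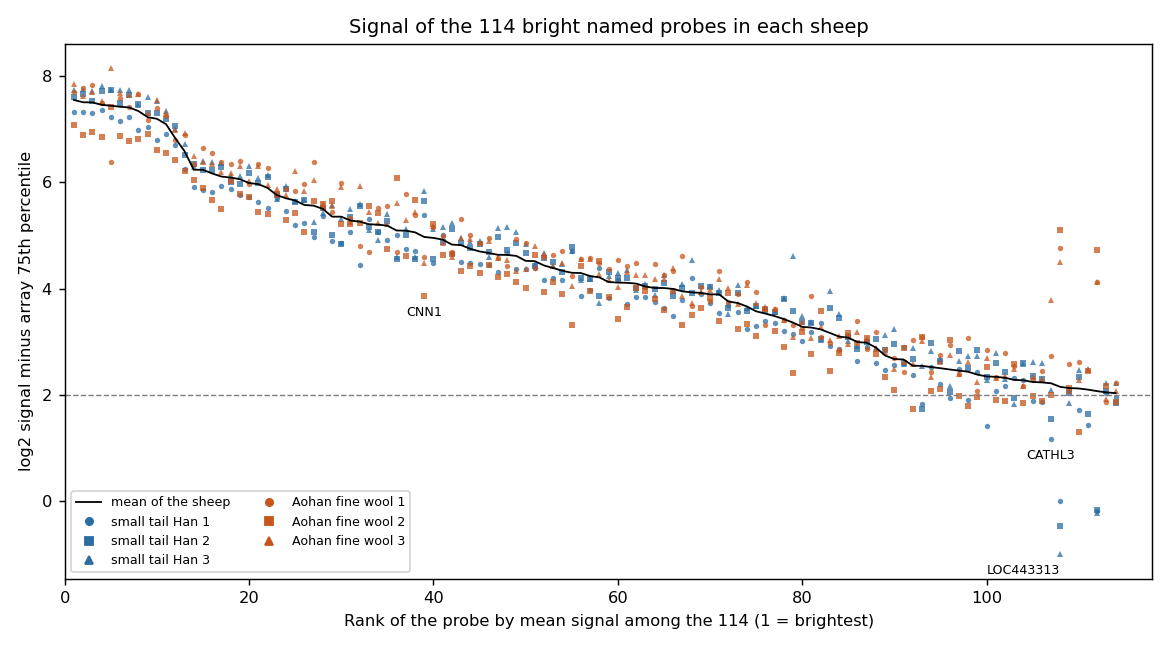
Level (log2 signal minus the array's 75th percentile) of the 114 probes in each of the 6 sheep, against the rank of the probe's mean; blue marks are small tail Han sheep, orange marks are Aohan sheep, the black line is the mean and the dashed line the level of 2. The marks of the 6 sheep lie within 1 of each other at 87 of 113 probes and are widest apart at LOC443313, whose probes at ranks 108 and 112 are near 0 in small tail Han and above 4 in Aohan sheep.

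The top of the order was held by proteins of the ribosome, ferritin, decorin and ubiquitin. RPL10, a protein of the large ribosomal subunit, had 3 probes among the first 10. Its brightest probe A_70_P029951 gave levels of 7.33, 7.60 and 7.74 in the small tail Han sheep and 7.69, 7.08 and 7.85 in the Aohan sheep. The others gave 7.22, 7.64 and 7.74 against 7.42, 6.77 and 7.65 (A_70_P029952) and 6.80, 7.31 and 7.52 against 7.39, 6.60 and 7.55 (A_70_P072276). At all 3 probes the breeds overlapped, and Aohan replicate 2 was the lowest sheep.

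FTH1, the heavy chain of the iron store ferritin, had probes in places 2 and 3. FTH1 A_70_P039496 gave 7.32, 7.66 and 7.76 in small tail Han and 7.77, 6.89 and 7.63 in Aohan sheep. A_70_P039497 gave 7.30, 7.52 and 7.72 against 7.84, 6.94 and 7.70. Here too the lowest value was that of Aohan replicate 2, and the rest of the Aohan values lay within or just above those of small tail Han sheep.

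RPS26 and RPS25 belong to the small ribosomal subunit. RPS26 gave 7.36, 7.71 and 7.81 in small tail Han and 7.48, 6.86 and 7.52 in Aohan sheep at its brighter probe (A_70_P050961) and 7.04, 7.31 and 7.60 against 7.18, 6.92 and 7.30 at the other (A_70_P050962). RPS25 A_70_P051257 gave 7.23, 7.74 and 7.73 against 6.39, 7.41 and 8.14. This probe held both the brightest single value of the first 10 and the dimmest, and in Aohan replicate 1, where it was dimmest, it ranked 16 among the 114. The other RPS25 probe, A_70_P051256, gave 7.25 in that same sheep.

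DCN, decorin, a proteoglycan that binds collagen fibrils in the dermis, gave 7.16, 7.49 and 7.74 in small tail Han and 7.59, 6.86 and 7.68 in Aohan sheep at its brighter probe. UBB, a polyubiquitin gene, gave 6.98, 7.47 and 7.45 against 7.67, 6.81 and 7.67 at its brighter probe. In both, the breeds overlapped and Aohan replicate 2 was again the lowest. The means of the first 10 probes lay between 7.19 and 7.55, which is less than the spread over sheep of any of them. Part of that spread was common to the probes of an array, so it cannot decide their order. On every array RPL10 A_70_P029951 (ranks 2 to 5 among the probes described) lay above RPL10 A_70_P072276 (ranks 8 to 11). The ranks of probes next to each other overlapped, and RPS25 A_70_P051257 ran from 1 to 16. The order of the first 10 was thus kept over the sheep only in part.

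The order of the 114 probes was much the same in every sheep. Of the probes, 7 were among the first 10 on every array and 11 on at least 1, and 42 were among the first 50 on every array. Spearman's rho of the levels was 0.951 to 0.990 for the 6 pairs of sheep of a breed and 0.881 to 0.937 for the 9 pairs across breeds. All pairs used the same probes, so these values describe a shared order to which the probes' own sequences contribute. The probes include those of LOC443313, which reached the level of 2 through the Aohan sheep alone. Their ranks among the 114 ran from 37 and 40 down to 114, which lowers rho across breeds. Values without them are not given, so the lower rho across breeds is not read as a wider change of order. Over 113 probes with 6 values, the highest sheep exceeded the lowest by a median of 0.80, and by under 1 at 87 probes. ANXA2, annexin A2, a calcium-dependent membrane-binding protein, was the most even, at 5.70, 5.76 and 5.68 in small tail Han and 5.76, 5.78 and 5.88 in Aohan sheep. SERPINA1 A_70_P030257 and PRNP A_70_P012607 were nearly as even, with ranges of 0.21 and 0.30.

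Part of the spread was common to the probes of an array. On Aohan replicate 2 the median probe lay 0.33 below its own mean over the 6 sheep and on small tail Han replicate 1 it lay 0.23 below, whereas it lay above on the other arrays by 0.07 to 0.20. Of 113 probes, 63 had their lowest value on Aohan replicate 2 and 27 on small tail Han replicate 1. Among the 19 probes at a level of 6 or more, the shift on Aohan replicate 2 was -0.50. These sheep had the highest 75th percentile of intensity of their breed (2028 and 2281). After quantile normalization, which gives all arrays the same distribution of signal, the median shift was between -0.05 and 0.11 on each array, and the median residual SD of the 114 probes was 0.17 instead of 0.30. For all tested probes it was 0.25 instead of 0.27.

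**Figure D2:**
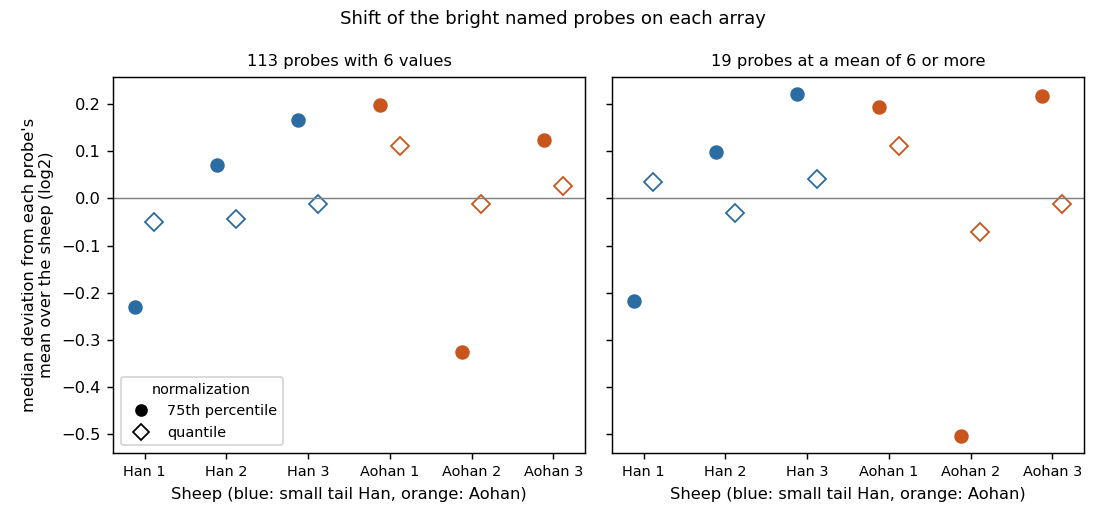
Median deviation of the probes from their own mean over the 6 sheep (log2), on each array, for the 113 probes with 6 values (left) and the 19 probes at a level of 6 or more (right). Filled circles are signals scaled to the 75th percentile and open diamonds quantile-normalized signals; Aohan replicate 2 lies at -0.33 and -0.50 with the first and at -0.01 and -0.07 with the second.

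Most of the 114 probes differed little between the breeds. With limma, 9 of the 114 passed at an adjusted p under 0.05 (7.89%, where 15.2% of all 12480 tested probes and 6.72% of the 1921 tested probes at a level of 2 or more passed), 6 higher and 3 lower in Aohan sheep. The 6 are 5.26% of the 114, against 7.5% of all tested probes and 2.76% of those at the same level that passed as higher, and the 3 are 2.63%, against 7.66% and 3.96% that passed as lower. At an unadjusted p under 0.05 there were 18 probes, 15.8% against 29.4% of all tested and 17.9% of those at the same level. The breeds did not overlap at 23 probes, 20.2% against 34.1% of all tested and 21.9% of those at the same level. The median change (Aohan minus small tail Han, log2) was 0.01, with 57 probes above 0 and 57 below, against 0.02 over all tested probes and -0.08 over those at the same level. The median size of the change was 0.18, against 0.32 and 0.23. The share that passed was near that of all probes at the same level.

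This count moved with the scaling. With quantile normalization 18 probes passed, 14 higher and 4 lower in Aohan sheep, which is 15.8% of the 114 against 17.3% of all tested and 16.4% at the same level. Cyclic loess gave 19 of 113 (15 higher and 4 lower) and the deposited series matrix values 18 (14 and 4), and all 9 probes that passed with the 75th percentile passed with each of these 3 normalizations between arrays, called the 3 normalizations below. At the same level 15.9% of probes passed with each of the last 2, and over all tested probes 17.1% and 16.7%, beside 16.8% and 15.8% of the probes described here. The gap between the bright probes and all tested ones was thus smaller with these normalizations than with the 75th percentile. With the array median in place of the 75th percentile 8 of the 114 passed, all among the 9 (7.02%, against 14.6% of all tested and 6.14% at the same level). With normexp background correction 13 passed, 7 of them among the 9 (11.4%, against 13.8% and 8.64%).

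A probe that misses the threshold is not shown to be equal, so the 95% confidence interval of the change was used to describe stability. At 96 of the 114 probes (84.2%) the whole interval lay between -1 and 1, that is, within 2-fold either way. The share was 61.4% over all tested probes and 81.6% over those at the same level. It held for 18 of the 19 probes at a level of 6 or more, 40 of 46 between 4 and 6, and 38 of 49 between 2 and 4. The exception at the top was RPS25 A_70_P051257, whose interval ran from -1.21 to 0.71.

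Among the smallest changes were those at SERPINA1 A_70_P030257, NDUFA12, DNMT1 and NM_001009245 A_70_P050971. SERPINA1, the protease inhibitor alpha-1-antitrypsin, gave 3.13, 3.09 and 3.01 in small tail Han and 3.11, 3.17 and 2.95 in Aohan sheep, with an interval of the change from -0.34 to 0.34. NDUFA12, a subunit of respiratory complex I, gave 3.82, 4.32 and 4.24 against 4.38, 3.83 and 4.16, interval -0.49 to 0.48. For both genes the values of the breeds ran through each other. DNMT1, the maintenance DNA methyltransferase, gave 3.35, 3.56 and 3.57 against 3.61, 3.20 and 3.62, interval -0.42 to 0.39. The accession NM_001009245, to which no symbol was matched, gave 3.64, 4.11 and 4.26 against 4.26, 3.61 and 4.19, interval -0.53 to 0.56, and its other probe changed by 0.04.

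**Figure D3:**
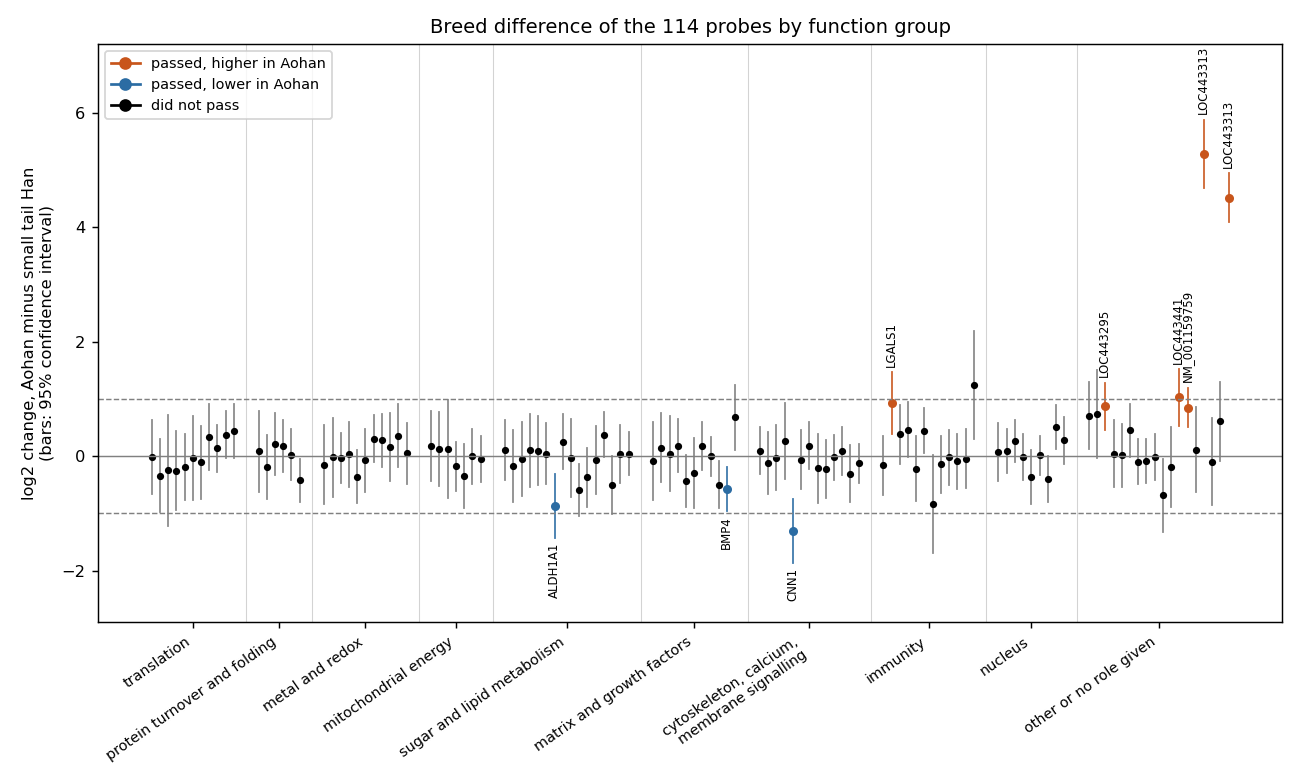
Change of each of the 114 probes between the breeds (log2, Aohan minus small tail Han) with its 95% confidence interval, grouped by function and ordered within a group by level; dashed lines mark -1 and 1. Named in orange or blue are the 9 probes that passed, of which the LOC443313 probes lie at 4.52 and 5.27 and the others between -1.31 and 1.02.

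Genes of translation were the brightest group and none passed. At the same level 6.72% of all tested probes passed and 81.6% were stable within 2-fold. The counts of this group and of those below stand beside these shares. With so few probes in a group, none passing is not told apart from them. The gene lists were matched only to probes with a sheep RefSeq mRNA accession, and the share beside them is the 15.2% of all tested probes that passed. The group had 11 probes of 7 genes, with a median level of 7.19 and changes from -0.34 to 0.43. Besides RPL10, RPS26 and RPS25 it held RPSA, a small-subunit protein, EIF1AX, a factor of translation initiation, and YBX1, an RNA-binding protein. YBX1 gave 5.06, 5.07 and 4.92 in small tail Han and 5.53, 5.42 and 5.23 in Aohan sheep, so that the breeds did not overlap, and did not pass (change 0.38, adjusted p = 0.212). EIF1AX changed by 0.33 (SE 0.25) and passed with quantile normalization, cyclic loess and the series matrix values (0.39 with the first, adjusted p = 0.0495). Of the list of ribosome and translation genes, 10 probes were tested, 9 of them among the 114, and 0 passed in either direction.

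Protein turnover and folding had 6 probes of 5 genes, all within 2-fold and none passing. UBB was followed by CRYAB, a small heat shock chaperone, at a level of 6.06, PSMA6, a proteasome subunit, at 4.67, CAST, which inhibits calpains, at 4.39, and the calpain CAPN2 at 2.28. Their changes lay between -0.42 at CAPN2 and 0.22 at CRYAB. CAPN2 did not overlap between the breeds (2.29, 2.60 and 2.58 against 2.17, 1.85 and 2.17) but had an adjusted p of 0.128. The list of folding and turnover genes had 5 tested probes, 4 among the 114, and 1 passed as higher in Aohan sheep, the immunoproteasome subunit PSMB8, which is not one of them.

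Genes of metal and redox handling had 11 probes of 6 genes, all within 2-fold and none passing. After FTH1 came TXN, thioredoxin, at 5.28 and 4.83, TXNDC17, a thioredoxin-related protein, at 4.44, the copper chaperone ATOX1 at 4.09 and 4.01, the metallothionein MT3 at 3.89 and 3.66, and UROD, an enzyme of haem synthesis, at 3.57. Changes lay between -0.36 at TXN A_70_P039382 and 0.36 at MT3 A_70_P030066. ATOX1 A_70_P039487, at 3.83, 4.02 and 3.97 in small tail Han and 4.47, 4.01 and 4.26 in Aohan sheep, overlapped narrowly and passed with the 3 normalizations (0.40 with quantile normalization, adjusted p = 0.0379). Of the list of metal and iron genes 6 probes were tested and 2 passed as higher in Aohan sheep (LTF and SLC11A1), while the 3 FTH1 probes did not, and the antioxidant list held the TXN probes alone.

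Mitochondrial genes had 7 probes of 6 genes, all within 2-fold and none passing. ATP5MC2 and ATP5MC1, which encode the c subunit of the ATP synthase ring, had levels of 6.58, 4.92 and 4.64. SLIRP, which stabilises mitochondrial mRNA, was at 5.97, the ATP synthase subunit ATP5PO at 5.26, NDUFA12 at 4.12 and the ADP/ATP carrier SLC25A5 at 2.67. ATP5PO was the most variable, at 4.45, 5.55 and 5.59 in small tail Han and 4.80, 5.24 and 5.92 in Aohan sheep, and its interval from -0.72 to 0.98 only just fitted within 2-fold. In the list of mitochondrial energy genes 5 probes were tested, 3 among the 114, and 1 outside them, the carrier SLC25A4, was lower in Aohan sheep.

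Sugar and lipid metabolism was the largest named group, with 16 probes of 14 genes, of which ALDH1A1 passed and 13 were stable within 2-fold. FABP5, the epidermal fatty acid-binding protein, had a level of 6.24. Enzymes that make cytosolic NADPH were even between the breeds: PGD (6.11 and 4.82) of the pentose phosphate path and IDH1 (4.34) changed by -0.17 to 0.10. Of sugar storage and uptake, the glycogen phosphorylase PYGL was at 3.27 and the glucose transporter SLC2A3 at 2.03. SQLE, squalene epoxidase of cholesterol synthesis (5.57 and 4.24), changed by 0.10 and 0.25. The list of glycolysis and cytosolic metabolism had 7 tested probes, 5 among the 114, and 0 passed in either direction.

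The enzymes of retinoid and prostaglandin synthesis had probes that fell or did not overlap. ALDH1A1, which makes retinoic acid from retinal, fell from 4.70, 4.79 and 4.71 in small tail Han to 4.23, 3.32 and 4.04 in Aohan sheep, a change of -0.87 (SE 0.24, adjusted p = 0.0454). The breeds did not overlap, and the fall was led by Aohan replicate 2. PTGDS, a prostaglandin D synthase, gave 4.21, 3.92 and 4.54 against 3.68, 3.50 and 3.73, without overlap, but did not pass (change -0.59, adjusted p = 0.0832). PTGS1, the constitutive cyclooxygenase, changed by -0.50 (interval -1.01 to 0.01). ABHD5, an activator of triglyceride lipase, at 2.64, 2.86 and 2.92 against 3.39, 2.97 and 3.19, did not overlap and passed with the 3 normalizations (0.46 with quantile normalization, adjusted p = 0.0210) and with normexp (0.61, adjusted p = 0.0340). The fat cell regulator PPARG (2.32), the cholesterol acyltransferase LCAT (3.43) and HSD11B1, which makes active glucocorticoid (3.95), changed by 0.04, -0.37 and -0.03.

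Matrix proteins and growth factors had 11 probes of 6 genes, of which 1 BMP4 probe passed and 10 were stable. DCN and TIMP1, an inhibitor of matrix metalloproteinases, were the brightest, TIMP1 at 6.23 and 6.17, and they changed by -0.09 to 0.18 over 4 probes. SERPINA1 stood at 3.23 and 3.08. Among the growth factors, IGFBP2, which binds insulin-like growth factors, was at 4.63 and 4.61 with changes of -0.43 and -0.30, and A_70_P050966 passed with normexp (-0.72, adjusted p = 0.0452). IGF2, insulin-like growth factor 2, gave 1.41, 2.34 and 2.28 in small tail Han and 2.85, 2.52 and 2.69 in Aohan sheep, with no overlap, a change of 0.68 and an adjusted p of 0.107. It passed with the 3 normalizations (0.78 with quantile normalization, adjusted p = 0.0345) and with normexp (0.85, adjusted p = 0.0021).

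BMP4, a growth factor of the follicle's dermal papilla, was lower in Aohan sheep at both probes without overlap. Its probe A_70_P030207 gave 2.43, 2.85 and 2.74 in small tail Han and 2.08, 1.96 and 2.24 in Aohan sheep, a change of -0.58 (SE 0.17, adjusted p = 0.0497), and A_70_P030206 gave 2.52, 2.97 and 2.83 against 2.43, 2.07 and 2.33, a change of -0.50 (adjusted p = 0.100) that passed with the 3 normalizations (-0.40 with quantile normalization, adjusted p = 0.0499). The first lay just inside the threshold and kept its call under 6 of 17 alternative settings. The list of extracellular matrix genes had 9 tested probes, 4 of them among the 114, and the only probe that passed was SERPINF1, outside them and higher in Aohan sheep.

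The group of cytoskeleton, calcium and membrane signalling had 13 probes of 11 genes, and CNN1 was the one that passed. CNN1, calponin, an actin-binding protein of smooth muscle, gave 5.38, 5.66 and 5.85 in small tail Han and 4.60, 3.87 and 4.48 in Aohan sheep. The log2 change was -1.31 (SE 0.24, adjusted p = 0.0092), and the signal was 2.48-fold higher in small tail Han sheep without overlap. It was the only marker of the smooth muscle list that had a probe with a sheep RefSeq mRNA accession. In whole skin fewer cells of a type and less RNA per cell cannot be told apart. CNN1 kept its call under 16 of the 17 alternatives and lost it with the methods' t-test (adjusted p = 0.0787). In the list of cytoskeleton genes 6 probes were tested, of which 3 passed as higher in Aohan sheep, of CFL1 and TPM1 outside the 114, and CNN1 passed as lower.

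The other 12 probes of this group were stable within 2-fold. ANXA2 (5.76), the GTPase RAC1 (5.70), the calcium-binding protein sorcin (SRI, 5.18) and the dynein light chain DYNLT3 (5.09 and 4.70) led them. ATP1B1, the beta subunit of the sodium pump (4.52 and 3.53), the G protein subunit GNG11 (4.11), RCAN1, which inhibits calcineurin (3.73), MYL11, a myosin light chain (2.89), the calcium-binding CIB1 (2.34) and PRKAR1A, a regulatory subunit of protein kinase A (2.05), followed. Their changes lay between -0.31 at CIB1 and 0.27 at DYNLT3 A_70_P012546. In the list of signalling proteins 5 probes were tested, RAC1 and RAN among the 114, and 1 passed, CALM2, which is not among them.

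Immune genes had 12 probes of 8 genes, 9 of them stable. LGALS1, galectin-1, a sugar-binding protein of stroma and immune cells, passed as higher in Aohan sheep at 1 of its 2 probes. A_70_P051231 gave 4.98, 5.06 and 5.26 in small tail Han and 6.38, 5.64 and 6.05 in Aohan sheep, a rise of 0.93 (SE 0.24, adjusted p = 0.0310). At A_70_P002931 the values were 3.86, 4.19 and 4.15 against 4.55, 4.43 and 4.56, also without overlap, with a change of 0.44 (adjusted p = 0.123), and with quantile normalization it passed as well (0.52, adjusted p = 0.0199). The immune cell markers listed above were higher in Aohan sheep at 5 of 11 probes, and their part in this result was not tested.

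CATHL3, a cathelicidin antimicrobial peptide, had the widest spread of the immune genes, at 1.17, 1.54 and 2.09 in small tail Han and 2.73, 1.99 and 3.79 in Aohan sheep. It reached the level of 2 through the Aohan sheep, the breeds overlapped, and it did not pass (change 1.24, interval 0.29 to 2.18, adjusted p = 0.0821). With the 3 normalizations (1.33 with quantile normalization, adjusted p = 0.0424) and with normexp (1.14, adjusted p = 0.00061) it passed. MX1, an interferon-induced GTPase, was at 3.14, 3.58 and 4.62 against 3.32, 2.42 and 3.09, where small tail Han replicate 3 and Aohan replicate 2 stood apart from the rest (change -0.84, adjusted p = 0.177). MX1 passed with normexp (-1.17, adjusted p = 0.00050). The MHC class I gene OVAR (5.35 and 4.95) changed by 0.38 and 0.46. The cytokine MIF (5.99), FCGRT, the neonatal Fc receptor (4.52), the interferon receptor IFNAR1 (2.74 and 2.50) and the cytokine FLT3LG (2.24 at both probes) changed by -0.22 to -0.02. Of the list of antigen presentation and immunity, 15 probes were tested and 5 belong to the 114. In it 7 probes passed as higher and 4 as lower in Aohan sheep, and LGALS1 A_70_P051231 was the only one of them among the 114.

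Nuclear genes had 9 probes of 9 genes, all within 2-fold and none passing. The RNA polymerase II subunit POLR2G was the brightest at 4.75, and the group also held the histone variant H2AZ1 (4.04), the stress transcription factor ATF4 (3.76), DNMT1, SS18L2 (3.10), ZFP36, which speeds the decay of cytokine mRNA (2.46), the nuclear transport GTPase RAN (2.28) and the homeobox factor HOXC6 (2.13). Of the 9 probes, 3 did not overlap between the breeds, as was the case at 34.1% of all tested probes and 21.9% of those at the same level. ATF4 gave 3.70, 3.64 and 3.52 against 3.75, 3.91 and 4.01, RAN 2.32, 1.95 and 1.83 against 2.54, 2.57 and 2.49, and ZFP36 2.50, 2.83 and 2.65 against 2.39, 1.99 and 2.39. RAN came nearest to passing, with a change of 0.50 and an adjusted p of 0.0785. The list of nuclear genes had 3 tested probes, and 0 passed in either direction.

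The remaining 18 probes, of 13 genes or accessions with other roles or none given here, held 5 of the 6 that passed as higher in Aohan sheep. The largest difference was at LOC443313, a small proline-rich protein, a family that is cross-linked into the cornified envelope of keratinocytes. A_70_P051052 gave -0.17, -0.16 and -0.22 in small tail Han and 4.13, 4.73 and 4.13 in Aohan sheep, a rise of 4.52 (SE 0.19, adjusted p = 1.05e-05), or 22.9-fold. A_70_P051051 gave 0.00, -0.46 and -1.0 against 4.76, 5.10 and 4.50, a rise of 5.27 (SE 0.26, adjusted p = 2.33e-05), or 38.7-fold. Both probes were well above background in every sheep and kept their call under all 17 alternatives run. They reached the level of 2 through the Aohan sheep alone, so that the rule could not have taken them without a difference, and they are no sign of how bright genes behave. Among the 108 probes whose mean was 2 or more in both breeds, 7 passed (6.48%) and 94 were stable. With the left-out genes set aside, LOC443313 was the only gene of the keratinocyte list that had a probe with a sheep RefSeq mRNA accession.

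**Figure D4:**
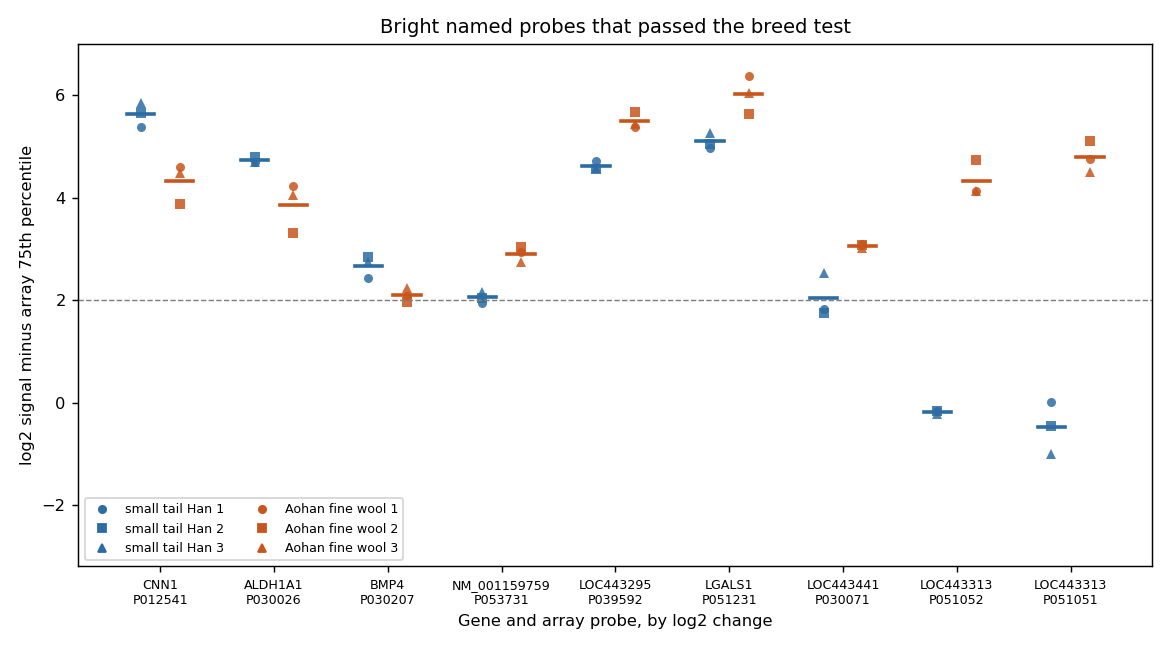
Level of the 9 probes that passed the breed test in each sheep, ordered by change; short bars are breed means (n = 3), marks are sheep and the dashed line is the level of 2. The breeds do not overlap at any of the 9, which were picked by the test on these same values. The gap is far wider at LOC443313 (22.9- and 38.7-fold), which reached the level of 2 through the Aohan sheep alone, than at the others (1.49- to 2.48-fold).

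The other rises in this group were smaller. LOC443441 gave 1.82, 1.74 and 2.54 in small tail Han and 3.09, 3.08 and 3.01 in Aohan sheep, a rise of 1.02 (SE 0.22, adjusted p = 0.0156). The accession NM_001159759, with no symbol matched, gave 1.95, 2.05 and 2.17 against 2.93, 3.03 and 2.75, a rise of 0.85 (SE 0.15, adjusted p = 0.0076), and passed under all 17 alternatives run. LOC443295 A_70_P039592 gave 4.72, 4.56 and 4.59 against 5.39, 5.66 and 5.44, a rise of 0.87 (SE 0.18, adjusted p = 0.0137). The second probe of LOC443295, A_70_P039591, had nearly the same level (5.09) but 5.01, 4.56 and 4.60 against 4.69, 6.08 and 5.62, so that the breeds overlapped and it did not pass (change 0.74, adjusted p = 0.184).

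ASIP, agouti signalling protein, which turns melanocytes to yellow pigment, gave 4.86, 4.84 and 5.30 in small tail Han and 5.99, 5.22 and 5.91 in Aohan sheep. It did not pass (change 0.71, interval 0.12 to 1.30, adjusted p = 0.107), but did with the 3 normalizations (0.75 with quantile normalization, adjusted p = 0.0114). PRNP, the prion protein, changed by 0.45 at A_70_P012606 and by -0.08 at A_70_P012607, probes of nearly equal level (3.99 and 3.89), and the first passed with the 3 normalizations (0.54 with quantile normalization, adjusted p = 0.0082). The peptide transporter SLC15A1 (3.17) changed by -0.68 with an interval from -1.32 to -0.05. LHB, the beta chain of luteinising hormone (3.92), the transporter ABCG2 (2.55), NUDT16 (2.44 and 2.12), LOC443442 (2.10), NM_001009245 and NM_001105260 (3.28) changed by -0.19 to 0.61, and none passed. With normexp LOC443442 passed (0.70, adjusted p = 0.0327). However, it reached the level of 2 through the Aohan sheep (mean 2.46, against 1.86 in small tail Han) and lacked a value on Aohan replicate 1.

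The scanner read each slide at a high and a low gain, and the brightest spots were taken from the low gain and scaled up. Of the 114 probes, 55 came from the low gain on all 6 arrays, 30 on none and 29 on some. At 8 probes the low gain was used on the 3 small tail Han arrays and on no Aohan array, and ALDH1A1 was one of these. The others were GNG11, LHB, RCAN1, MT3 A_70_P030066, UROD, DNMT1 and LCAT, with changes between -0.37 and 0.36, and none passed. The reverse held for LOC443313 A_70_P051052, whose Aohan values came from the low gain. The part of the gain in these changes was not tested.

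Several probes of 1 gene gave a view of how far the level depends on the probe. Of the 85 genes or accessions, 39 had more than 1 named probe on the array. At 26 of these every probe was among the 114, and the probes of a gene differed in level by a median of 0.30 and at most by 2.29, at FTH1, whose dimmest probe stood at 5.21 instead of 7.50. Their changes between the breeds had the same sign at 18 of the 26 genes and differed by a median of 0.18 and by at most 0.76 over the genes with more than 1 probe among the 114.

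At the other 13 genes a further probe lay under the level of 2, and the brightest and dimmest probes of a gene were 0.98 to 9.37 apart. PRNP had probes at 3.99 and 3.89 and others at -5.19 and -5.37, ZFP36 at 2.46 and -6.07, LHB at 3.92 and -2.84, IGF2 at 2.35 and -2.93, ASIP at 5.35 and 0.57, and YBX1 at 5.20 and 0.86. The bright LHB probe gave 3.90, 4.06 and 3.95 against 4.03, 3.64 and 3.93, and the dim one -2.94, -2.79 and -2.61 against -2.77, -3.05 and -2.91. Thus each probe was even over the 6 sheep, while the level given to the gene differed by 6.76 with the probe. The ZFP36 probe at -6.07 was well above background on 1 array and was not tested, and the PRNP probes at -5.19 and -5.37 were well above background on 4 and 3 arrays, so that the distances at these genes are not exact.

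**Figure D5:**
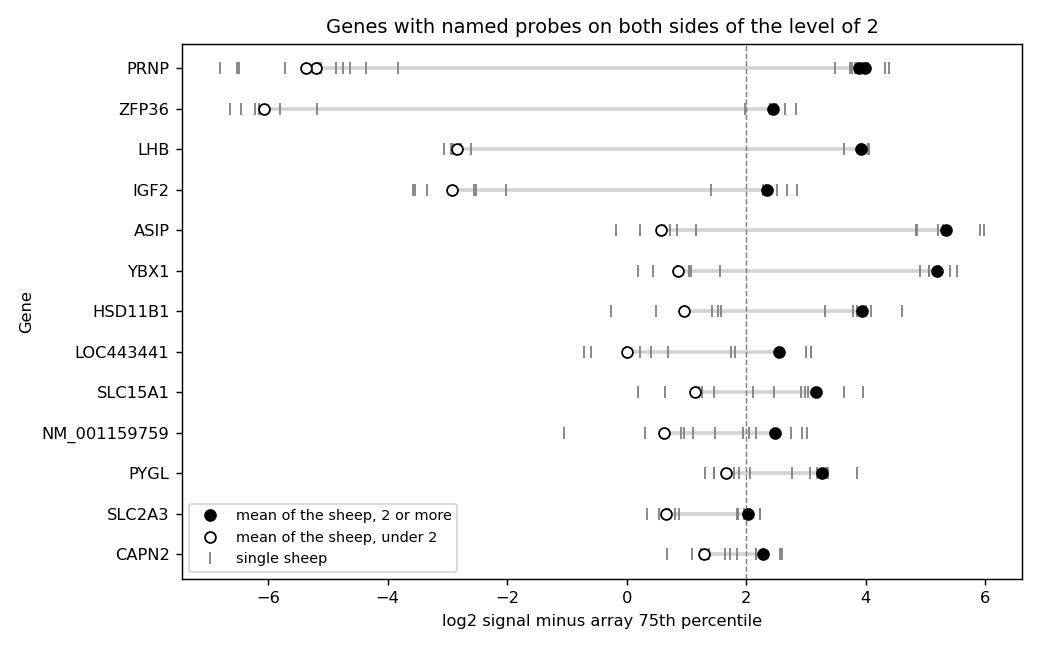
Level of every named probe of the 13 genes that have probes on both sides of the level of 2 (dashed line); filled circles are means over the 6 sheep of 2 or more, open circles means under 2, and ticks single sheep. The distance between the probes of a gene runs from 0.98 at CAPN2 to 9.37 at PRNP, whose dimmest probe was well above background on 3 of 6 arrays.

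The dimmer probes of these genes did not always give the same breed difference. IGF2 A_70_P016796 passed as higher in Aohan sheep (change 1.12, adjusted p = 0.0088), where the bright probe changed by 0.68 and did not pass, and LOC443441 A_70_P030073 passed with 0.89 (adjusted p = 0.0262) beside the 1.02 of its bright probe. For these genes both probes pointed the same way. HSD11B1 A_70_P051222 gave 1.52, 1.43 and 1.58 in small tail Han and 0.96, -0.26 and 0.49 in Aohan sheep and passed as lower (change -1.11, adjusted p = 0.0275), while the bright probe, which lay 2.99 above it, changed by -0.03. NM_001159759 A_70_P016751 changed by -0.99 and did not pass (adjusted p = 0.188), against the rise of 0.85 at the bright probe.

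The level of 2 is a point in a continuous range. Just inside it lay SLC2A3, at 1.97, 1.84 and 2.23 in small tail Han and 2.23, 1.87 and 2.07 in Aohan sheep, and PRKAR1A, at 2.03, 2.08 and 2.22 against 1.86, 2.17 and 1.93. Just outside lay MET, the receptor of hepatocyte growth factor, at 1.77, 2.21 and 2.19 against 2.20, 1.49 and 2.04 (mean 1.98), and PLIN1, a lipid droplet protein, at 1.68, 2.37 and 1.85 against 2.25, 1.58 and 1.44 (mean 1.86). At each of the 4 the sheep lay on both sides of 2. In the small tail Han mean 5 of the 114 probes were below 2 and in the Aohan mean 1, and 93 named probes were at 2 or more in every sheep.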

How the data were processed

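RNA of full-thickness skin from 6 sheep was hybridised to 1-colour (Cy3) Agilent sheep arrays, 1 per animal. Per the file headers, the authors extracted the images with Agilent Feature Extraction 10.5.1.1, which gave a background-subtracted intensity per spot, with no normalization between arrays, combined from a high and a low scan gain. The headers of small tail Han replicates 2 and 3 lack the multiplicative surface correction recorded for the others. The deposited series matrix holds log2 values normalized between arrays by the authors (each column's median is 8.31). The methods name GeneSpring GX for it, and the way of normalization is not given in the sources used here.

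After removal of control and outlier spots, each log2 processed intensity was set relative to the 75th percentile of its array, and replicate spots were averaged per probe. The test took probes that were well above background on 3 or more of 6 arrays and had 2 or more values in each breed. It was run with limma 3.58.1 (R 4.3.3; lmFit and eBayes with an intensity trend, two-sided, Benjamini-Hochberg adjustment over all 12480 probes at 0.05, breed as the only term). limma was first tested on simulated data. The number of arrays limits the precision. Names come from RefSeq accessions (assembly ARS-UI_Ramb_v3.0), found for 734 of 758 probes. Probe sequences and the places of probes in the genome were not used here.

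The members, the function groups, the gene and marker lists and the tests were chosen with earlier results of these data known. The members are named with their function, apart from some that are not reported here. Values of all 6 sheep are given for the 10 brightest, those that passed, the 5 of smallest change among the stable ones, those next to the level, and for other members and further probes where groups did not overlap or the text describes the spread, the last chosen after their values were seen. The alternatives were quantile normalization, cyclic loess (added after seeing the data), the array median, normexp (offset 50, planned on mean and run on median spot signals, the ones deposited), the series matrix values, other filters, a fit with no intensity trend, a block for the replicate number, each array left out, other level rules and the methods' t-test. Python 3.11.15, numpy 2.4.6, pandas 2.3.3 and matplotlib 3.10.9 were used.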

Additional observations from a re-analysis of the deposited data

How the results depend on the processing

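The results rested on 3 animals per breed. With quantile normalization, cyclic loess and the series matrix values, the number of the 114 probes that passed moved from 9 to 18, 19 and 18, and that of all probes at a level of 2 or more from 129 to 315, 300 and 307. With the methods' t-test 4 of the 114, 44 of the bright and 703 of all tested probes passed, against 1892 with limma. Leaving out 1 array in turn gave 4 to 10 of the 114 (4 without small tail Han replicate 2), 39 to 186 of the bright and 770 to 2235 of all tested probes. Of the single arrays, small tail Han replicates 2 and 3 and Aohan replicate 3 moved the count of all tested probes most, to 770, 937 and 1075. The number of stable probes was 76 to 93 with 1 array left out and 91 to 98 under the other scalings, and the number at the level 93 to 116 over the other level rules. Replicate numbers are not stated to pair the sheep. The same-number correlations of deviations from the breed means (-0.22, -0.37 and 0.28) cannot decide this, since the deviations hold the shifts common to an array. With the replicate block 6 of the 114 passed (5 shared), 61 of the bright and 1214 of all tested probes, and 82 were stable. Of 442 alternative values of the 26 probes given by rule, 32 lost their call, 0 gained one and 0 called changes reversed, while 62 values at 14 of the probes changed sign without passing under either setting. Of the 26, the 9 that passed could not gain a call, and the rest were picked for brightness, small change or nearness to the level. Other members did gain one, and 18 passed with all 3 normalizations. LGALS1 A_70_P051231 kept its call under 9 of 17 alternatives, ALDH1A1 10, LOC443295 A_70_P039592 14 and LOC443441 15. Signal over background set no limit for these probes, 113 of which were well above background on every array.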
